A study of Gallus gallus with 28 samples.

Results

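The genes of the cytokine system, which are the cytokines, the chemokines and the receptors that read them, made up 113 of the 13009 genes named on the chicken array. They were chosen by symbol: CCL, CXCL and CX3C chemokines with CCR and CXCR receptors, symbols of IL followed by a digit, toll-like receptors (TLR), TNF superfamily ligands and receptors (TNFSF, TNFRSF), colony stimulating factors and receptors (CSF), and TGFB ligands and receptors. TNFRSF19 and CSF1R were left out. Each symbol was read from 1 probe set, the one with the highest mean over all arrays. The rule uses no change between ages, but the genes were chosen with earlier results of these data known.

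Cytokines are secreted or membrane-bound proteins that carry signals between cells, and chemokines are the small cytokines that steer migrating leukocytes through receptors coupled to G proteins. Many interleukin receptors, though not all, signal through JAK kinases and STAT factors. Interleukin-1 receptors and most toll-like receptors signal through MyD88 and TLR3 through TRIF, both to NF-kB. TNF receptors signal through TRAF and death-domain adaptors, and TGF-beta receptors through SMAD proteins. In the gut of birds and mammals these genes are used by epithelium, stroma and a lymphoid tissue that fills with leukocytes in the first weeks of life, when microbes and feed reach the lumen.

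Intestinal total RNA of male birds was hybridised to 28 arrays, 4 for each of 7 ages. The ages were 18 and 20 days of incubation (e18, e20), the day of hatch, and the days d1, d3, d7 and d14, counted after hatch. Segments of 6 birds were extracted at each age, and the labels give no treatment and no genotype beyond 2 lines of birds and 2 pools, which they tie to no array. P-values therefore measure only the spread between arrays, which may be technical. The tissue label reads whole intestine where the design text has the small intestine, and all 12 enterocyte markers listed were above background at every age.

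Values are log2 intensities, and a level of one gene cannot be set against that of another. Background was the 95th percentile of 541 probe sets with IDs beginning NC-, whose mean by age ran from 3.00 at e18 to 3.46 at d1. A gene was tested where its log2 value exceeded 4 on at least 4 arrays, which kept 48 of the 113 genes and 8396 of all. A gene that is high at 1 age only, or only from some age on, passes this filter through those ages and had to differ. The counts below therefore describe the genes tested and support nothing by themselves, nor does the p of such a gene. Of the 48, 36 were above background at all 7 ages. Median intensity per array lay between 7.39 and 8.00 (linear scale), array pairs of the same age correlated at 0.978 to 0.994 across genes, and the number of arrays limits the precision.

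Nearly all of the genes tested moved with age. A moderated F-test (limma) found 47 of 48 to differ between ages (adjusted p under 0.05), beside 90.1% of all genes. The exception was TNFRSF10B, a death receptor of the TRAIL-binding group (adjusted p = 0.233). Of the 47, 22 had their highest mean at d14 (46.8%, against 15.7% of the 7561 genes called in all). Another 13 had it at e18, and 4 each at d3 and d7 (8.5%, against 7.8% and 3.9%). For e20 the number was 3 (6.4% against 16.3%), for d1 1 (2.1% against 10.8%) and for hatch 0 (against 11.6%). The e18 share was 27.7%, against 33.9% of all genes called. As the age of the lowest mean, e18 held 16 genes and d14 held 7. The d1 mean was lowest for 7 (14.9%, against 14.7% of all genes called). For e20 the number was 8 (17.0% against 8.3%) and for hatch 6 (12.8% against 6.0%). For d7 it was 2 (4.3% against 7.7%) and for d3 1 (2.1% against 7.2%). The e18 share of 34.0% was close to the 32.0% of all genes called, and the d14 share was 14.9% against 24.2%. Among the 48, 24 had array values that the text gives in full at the ages it discusses: they differed between ages with means that spanned at least 2, as 19.0% of all genes did, or changed by at least 2 up to d14.

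**Figure D1:**
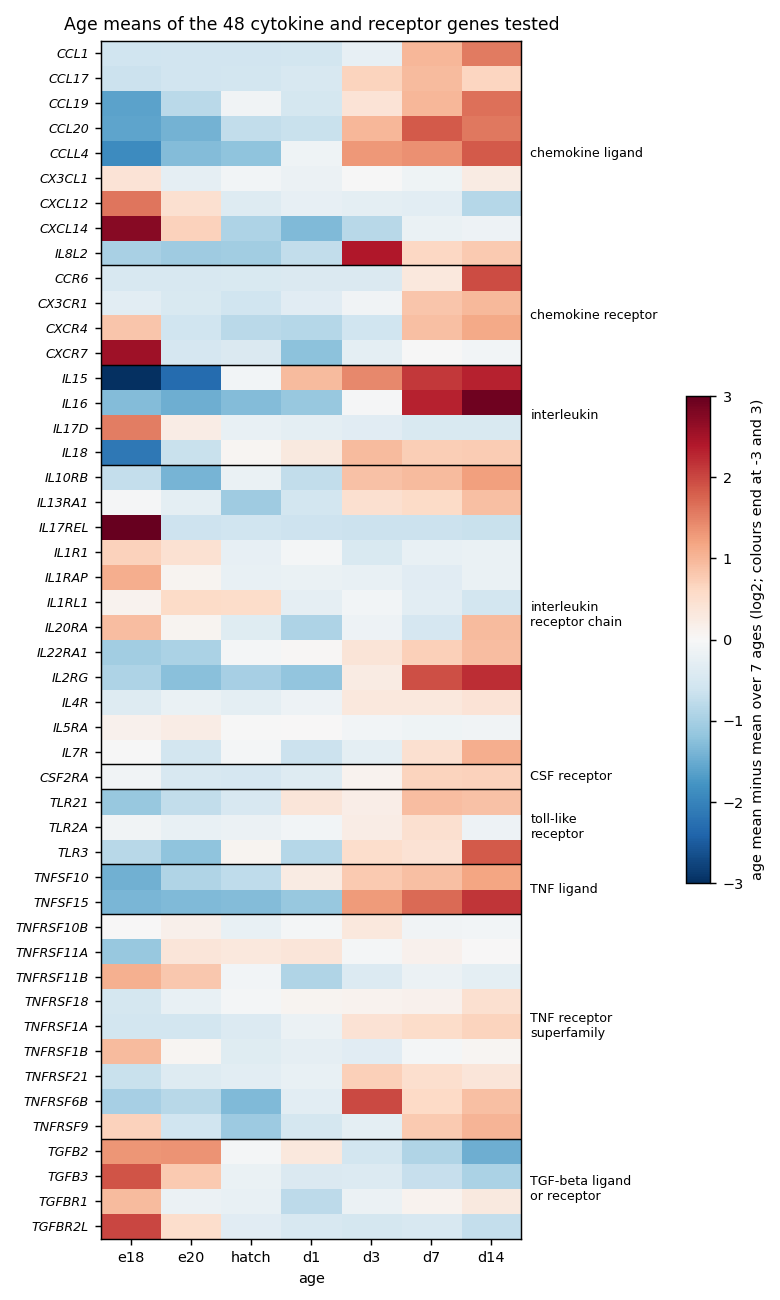
Age means of the 48 genes tested, each minus its own mean over the 7 ages (log2, colour), in rows by role and columns by age. Red marks an age mean above the gene's own mean, which need not be its highest. IL15, IL16, IL2RG and TNFSF15 are red in the d14 column and highest at that age. CXCL14, CXCR7, IL17REL, TGFB3 and TGFBR2L are red in the e18 column and highest there. Colours end at −3 and 3.

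The ends of the series were compared first, with d14 set against e18 and against e20. These comparisons share the d14 arrays, so their values are given side by side. Against e18, 27 of the 48 genes rose and 13 fell, that is 56.2% and 27.1%, beside 73.7% of all genes called (33.2% higher, 40.5% lower). Against e20, 31 rose and 12 fell, or 64.6% and 25.0%, beside 67.6% of all genes called (27.2% higher, 40.4% lower). The median change of the 48 was 0.97 and 1.19, and that of all genes tested −0.07 and −0.13. Among the 36 genes above background at every age, 18 rose and 11 fell against e18. Of all 7982 genes of that kind, 33.0% rose and 39.9% fell against e18. With e20 the numbers for the 36 were 21 and 11 (58.3% and 30.6%), beside 26.5% and 40.8% of the 7982. The median change of the 36 was 0.56 against e18 and 0.73 against e20, beside −0.06 and −0.14 for the 7982. The arrays of the 2 ages did not overlap for 40 genes against e18, beside 66.3% of all genes, and for 38 against e20, beside 61.2%. In tissue RNA, fewer cells of a type and less RNA per cell cannot be told apart.

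Side by side, 26 genes rose in both comparisons and 9 fell in both. TNFRSF11A rose against e18 and fell against e20, and TGFBR1 did the reverse. CXCR4, IL20RA, TNFRSF9 and CX3CL1 rose against e20 and were not called against e18, and each of them fell from e18 to e20. CXCR7, IL17REL and TNFRSF1B fell against e18 and were not called against e20, and these also fell from e18 to e20. IL1RL1 and IL5RA fell against e20 and were not called against e18, but the difference between e18 and e20 was not called for either. TNFRSF10B and TLR2A passed neither test.

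**Figure D2:**
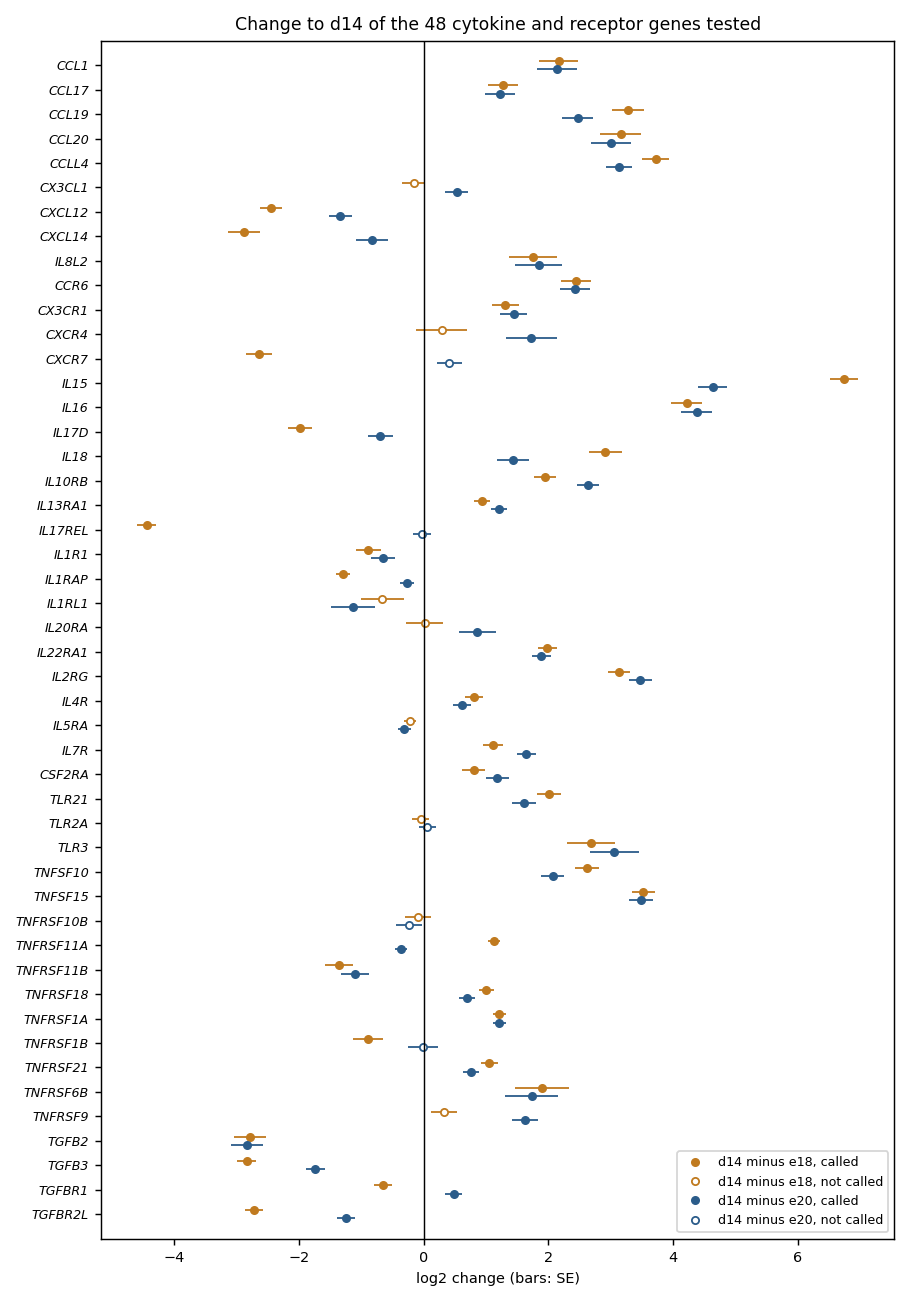
Change of each of the 48 genes tested from e18 (orange) and from e20 (blue) to d14, on the log2 scale with its SE from limma; filled points passed the test and open points did not. IL15 lies farthest to the right, at 6.74 and 4.63, and IL17REL farthest to the left against e18, at −4.44, with −0.03 against e20; its d14 and e20 means were under background.

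By symbol 18 genes were grouped as interleukins, with the enzyme IL4I1 among them. Of these, 4 could be tested, and 3 of the 4 rose in both comparisons. Among all genes 33.2% rose against e18 and 27.2% against e20. IL15 (gene ID 395258), a cytokine that in mammals keeps natural killer and intraepithelial T cells alive, climbed at each step up to d1. Its arrays read 6.01, 6.64, 5.38 and 4.95 at e18, 7.73, 8.20, 7.41 and 8.07 at e20, and 9.99, 10.09, 10.08 and 10.21 at hatch. They went on to 11.32, 11.03, 11.01 and 11.05 at d1, 11.69, 11.26, 11.76 and 11.73 at d3, 12.20, 12.05, 12.32 and 12.54 at d7, and 12.32, 12.43, 12.69 and 12.50 at d14. No array before hatch reached any array at or after it. The change to d14 was 6.74 ± 0.23 (SE, limma adjusted p = 3.94e-18) against e18 and 4.63 ± 0.23 (1.87e-14) against e20. Of this rise 2.11 fell between e18 and e20, 2.24 between e20 and hatch and 1.01 between hatch and d1, each called, and no later step was called. IL15RA, the chain that presents IL15, was under background on every array.

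IL18 and IL16 rose at different ages. IL18 (gene ID 395312), an interleukin of the IL-1 family that epithelial cells store as a precursor, read 3.26, 4.28, 3.39 and 4.02 at e18 and 5.20, 5.50, 4.82 and 5.35 at e20, and its age means were 5.94 at hatch and 6.65 at d14. Its arrays at d14 were 6.29, 6.18, 7.01 and 7.11, above all arrays of both embryonic ages. The change was 2.91 ± 0.26 (limma adjusted p = 3.05e-10) against e18 and 1.43 ± 0.26 (3.50e-05) against e20. Its other probe set, near background at both embryonic ages, rose by 1.18 and 1.04, and the mean of both probe sets by 2.05 against e18.

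IL16 (gene ID 374270), a chemoattractant for cells that carry CD4, stayed near background up to d1. Its arrays read 3.02, 2.85, 2.88 and 3.30 at e18, 2.84, 2.99, 2.84 and 2.76 at e20, and 3.16, 2.90, 2.93 and 3.69 at d1. They spread over 3.28, 3.91, 4.84 and 5.10 at d3 and then stood at 6.48, 6.63, 6.92 and 6.51 at d7 and 7.43, 7.37, 7.07 and 7.06 at d14. All arrays of d7 and d14 lay above all earlier ones. With e20 under background, d14 was at least 17.0-fold higher, and d7 exceeded d3 by 2.35 ± 0.25 (limma adjusted p = 6.94e-07). IL16 passed the filter through arrays from d3 on, so this p supports nothing by itself. Its other probe set was under background at every age. IL17D, a cytokine of the IL-17 family, went the other way, from a mean of 4.97 at e18 to under background, at least 3.53-fold lower at d14.

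**Figure D3:**
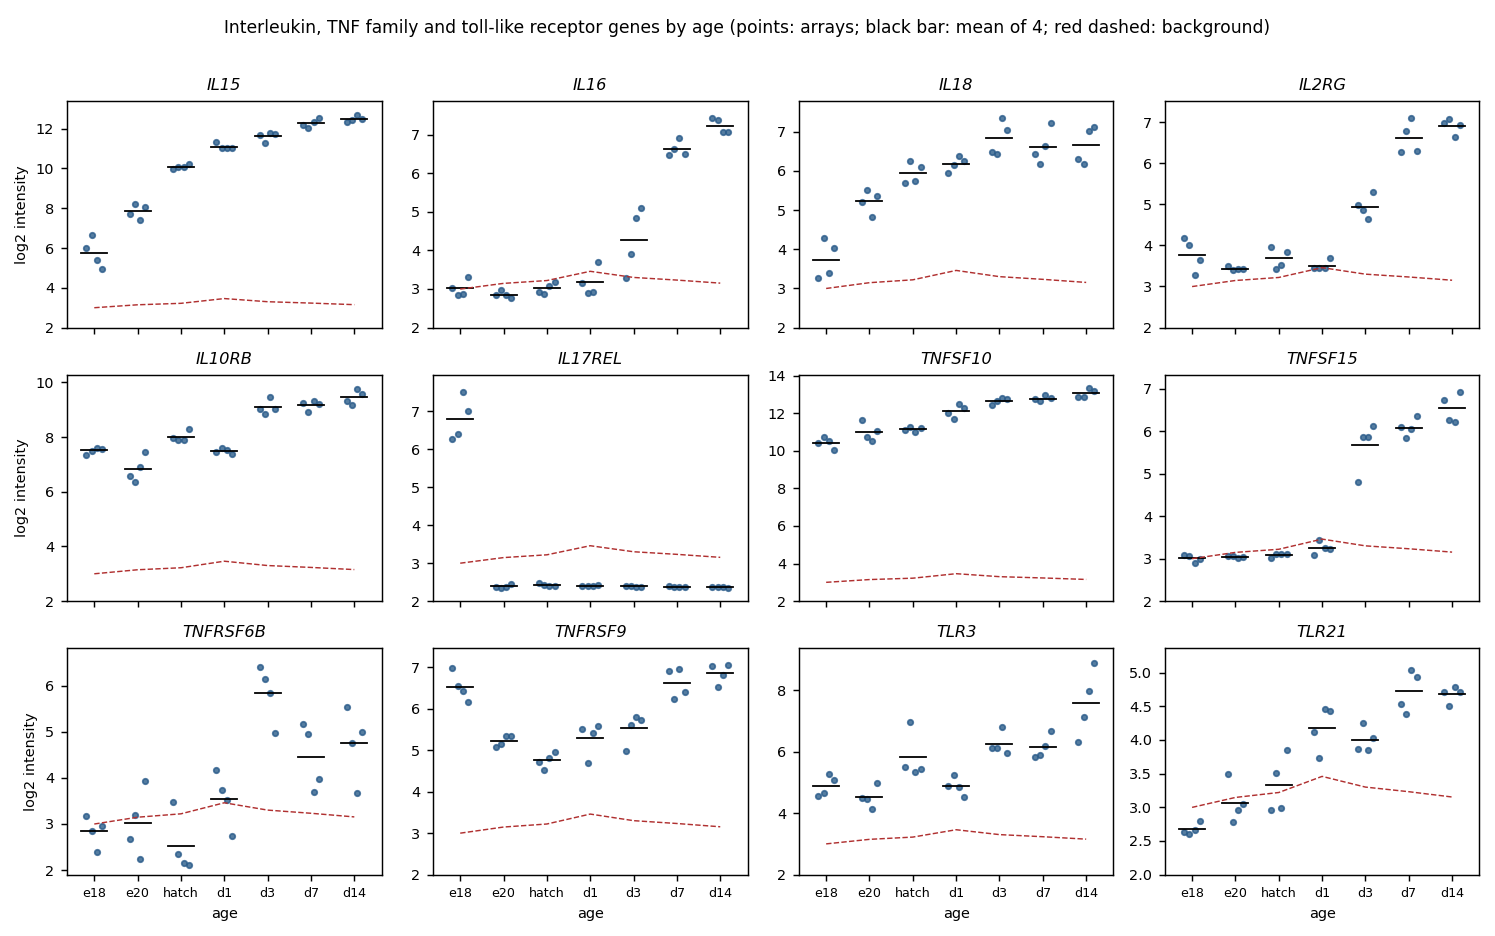
Log2 intensity of 12 interleukin, TNF family and toll-like receptor genes by age: points are the 4 arrays of an age, the black bar their mean and the red dashed line the mean background. IL15 starts to rise before hatch, IL16, IL2RG and TNFSF15 are higher from d3 on, and IL17REL lies above background at e18 only.

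Chains of interleukin receptors made up 32 of the 113 genes, and 12 could be tested. Against e18, 6 of these rose and 3 fell, beside 33.2% and 40.5% of all genes. Against e20, 7 rose and 4 fell, beside 27.2% and 40.4%. IL2RG (gene ID 395199), the common gamma chain shared by the receptors of IL2, IL4, IL7, IL9, IL15 and IL21, read 4.17, 4.00, 3.27 and 3.64 at e18, 3.50, 3.40, 3.42 and 3.41 at e20, and 3.44, 3.44, 3.46 and 3.70 at d1. It stood at 4.99, 4.86, 4.63 and 5.29 at d3, at 6.28, 6.78, 7.10 and 6.31 at d7, and at 6.98, 7.08, 6.64 and 6.92 at d14. From d3 on every array was above all arrays of the younger ages. The change to d14 was 3.13 ± 0.18 (limma adjusted p = 9.65e-14) against e18 and 3.47 ± 0.18 (5.56e-14) against e20. Every e20 and d1 array of IL2RG was under 4, and every array from d3 on was over it. The late arrays were enough to bring it into the test, so these p-values support nothing by themselves.

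IL10RB (gene ID 395663) is the chain shared by the receptors of IL10, IL22 and interferon lambda. It read 7.34, 7.51, 7.62 and 7.57 at e18, 6.58, 6.35, 6.90 and 7.44 at e20, and 9.31, 9.17, 9.74 and 9.59 at d14, where it was above both embryonic ages on every array. The change was 1.94 ± 0.17 (limma adjusted p = 2.93e-10) against e18 and 2.64 ± 0.17 (2.91e-12) against e20, and the mean of its 3 probe sets rose by 2.56 against e18. On the probe set used, its level fell by 0.69 from e18 to e20, rose by 1.19 to hatch, fell by 0.53 to d1 and rose by 1.61 to d3, each step called. A second probe set showed neither fall, with means of 6.59 at e18, 6.77 at e20, 7.67 at hatch and 7.91 at d1. The third, dimmer one had 4.81, 4.37, 6.21 and 5.80 at these ages. IL22RA1, the epithelial chain that pairs with IL10RB to bind IL22, rose by 1.99 and 1.89.

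On the probe sets used, smaller rises were seen for IL13RA1 (0.94 against e18, 1.21 against e20), IL7R, the receptor chain for IL7 on lymphocytes (1.11 and 1.65), and IL4R (0.81 and 0.62). A second probe set over the filter gave 1.97 and 2.43 for IL13RA1, and 0.98 and 2.43 for IL7R, all called. IL20RA changed by 0.01 against e18 (95% interval −0.60 to 0.63, not called) and rose by 0.86 against e20, where its second probe set gave 0.21 (not called). It was 1 of 3 genes called between d7 and d14, with arrays at 5.15, 5.20, 5.04 and 4.20 at d7 and at 7.02, 6.58, 5.82 and 5.93 at d14, a rise of 1.44 ± 0.30 (limma adjusted p = 0.0160).

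The chains of the IL-1 receptor group that were tested did not rise. IL1R1, the signalling receptor of IL-1, fell by 0.89 and 0.66, and IL1RAP, its accessory chain, fell by 1.29 and 0.26. IL1RL1, which in mammals binds IL33, fell by 1.14 against e20 and changed by −0.66 against e18 (interval −1.38 to 0.05, not called). At e20, 1 of its arrays stood at 9.36 and the other arrays between 6.55 and 7.14. A second IL1RL1 probe set gave 0.77 against e18 (limma adjusted p = 0.0386), opposite in sign to the one used. In the RefSeq gene order IL1R1 and IL1RL1 lie in a run with IL1R2, IL1RL2 and IL18R1, which were not tested. IL5RA fell by 0.31 against e20, and its change of −0.22 against e18 was not called.

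IL17REL (gene ID 769256), an IL-17 receptor homologue, was seen at e18 alone. Its arrays read 6.28, 6.41, 7.51 and 7.02 there, and the other 24 arrays lay between 2.35 and 2.48, under background. It was at least 12.6-fold lower at e20, and it entered the test only through its e18 arrays. The e18 arrays also differed from the rest in marker RNA: the log2 of the summed intensity of 7 heterophil granule markers was 13.39 to 14.67 at e18 and 5.51 to 6.68 at all other ages, and that of 10 exocrine pancreas markers 15.38 to 15.84 against 6.85 to 10.89. Their part in the e18 values of this and the other genes was not tested.

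Of 14 chemokine ligands 9 could be tested. Against e18, 6 of these rose and 2 fell, beside 33.2% and 40.5% of all genes. Against e20, 7 rose and 2 fell, beside 27.2% and 40.4%. CCL19 (gene ID 427406), which in mammals guides T cells and dendritic cells through CCR7, read 4.84, 5.12, 4.74 and 5.11 at e18, 5.91, 6.02, 5.27 and 5.83 at e20, and 7.74, 7.60, 8.48 and 9.09 at d14. The d14 arrays lay above those of both embryonic ages, although they spread over 1.49. The change was 3.28 ± 0.25 (limma adjusted p = 1.70e-11) against e18 and 2.47 ± 0.25 (5.44e-09) against e20, with called rises from e18 to e20, to hatch and from d1 to d3. CCR7 was under background on every array.

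CCL20, the ligand of CCR6, and CCR6 itself rose at different ages. CCL20 (gene ID 395082) read 4.54, 4.27, 2.78 and 3.20 at e18, 3.52, 4.51, 3.94 and 3.43 at e20, and 4.66, 4.69, 4.53 and 4.54 at d1. It then stood at 5.82, 6.43, 6.22 and 6.68 at d3, at 6.89, 6.92, 8.15 and 6.49 at d7, and at 7.13, 6.68, 6.56 and 7.06 at d14. The step from d1 to d3 was 1.68 ± 0.33 (limma adjusted p = 0.000493), and d14 exceeded e20 by 3.00 ± 0.33. CCR6 (gene ID 769278), a receptor of lymphocytes and dendritic cells in mammals, stayed between 2.22 and 2.29 on all 20 arrays up to d3. Its arrays read 2.46, 2.36, 3.92 and 3.36 at d7 and 5.52, 4.53, 4.21 and 4.43 at d14, without overlap. It was at least 2.29-fold higher at d14 than at d7, and it entered the test only through its d14 arrays.

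CCLL4 (gene ID 417464), a CC chemokine, rose in steps. Its arrays read 5.12, 5.11, 5.52 and 4.92 at e18, 6.10, 6.31, 4.97 and 5.64 at e20, 7.22, 6.84, 6.92 and 6.77 at d1, 8.20, 8.32, 8.56 and 8.39 at d3, and 8.91, 8.70, 8.79 and 9.17 at d14. Every array from d1 on lay above all arrays of e18, e20 and hatch. The change to d14 was 3.72 ± 0.21 (limma adjusted p = 5.41e-14) against e18 and 3.14 ± 0.21 (4.17e-12) against e20. The related CCL4, which lies close to it in the RefSeq gene order with 2 genes between, was under background on every array.

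IL8L2 (gene ID 396495), a chicken counterpart of the neutrophil attractant CXCL8, peaked at d3. Its arrays read 2.78, 3.17, 2.99 and 3.16 at d1, 6.81, 5.64, 6.97 and 5.26 at d3, 5.40, 4.61, 4.46 and 3.12 at d7, and 5.35, 4.19, 3.96 and 4.74 at d14, and none of the embryonic and hatch arrays exceeded 3.11. The d3 arrays lay above all d1 arrays and overlapped with those of d7. It was at least 6.54-fold higher at d3 than at d1 and fell by 1.77 ± 0.38 from d3 to d7 (limma adjusted p = 0.00307). Only arrays from d3 on brought it into the test. IL8L1, its neighbour and the other CXCL8-like gene, was too low for the test. It read 3.99, 3.44, 4.54 and 2.98 at d3 and 3.14, 3.53, 2.82 and 2.79 at d7, so that its highest arrays were also at d3.

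CCL1 (gene ID 395552), a CC chemokine, read 2.28 to 2.36 on all 16 arrays up to d1, under background throughout. Its arrays stood at 2.35, 2.95, 2.94 and 2.34 at d3, at 2.39, 4.23, 4.44 and 4.52 at d7, and at 3.93, 3.86, 4.86 and 5.18 at d14. It was at least 2.75-fold higher at d14 than at e18 and at least 2.48-fold higher than at e20. Only arrays of d7 and d14 brought CCL1 into the test. CCL17, in mammals a ligand of CCR4 on T cells, lay between 3.07 and 3.25 up to d1, rose to a mean of 4.40 at d3 and stood at least 2.30-fold higher at d14 than at e20. CCL17 entered the test only through arrays from d3 on. CX3CL1, its neighbour in the gene order and a membrane-bound chemokine, changed by −0.16 against e18 (interval −0.54 to 0.22, not called) and rose by 0.53 against e20.

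CXCL12 and CXCL14 were the chemokine ligands that fell. CXCL12 (gene ID 395180), a stromal chemokine for cells with CXCR4, read 8.92, 8.24, 8.96 and 8.77 at e18, 7.35, 8.01, 7.74 and 7.36 at e20, 6.60, 6.81, 6.72 and 6.79 at hatch, and 6.66, 6.13, 6.10 and 6.22 at d14. The 3 ages e18, e20 and d14 did not overlap. Its change to d14 was −2.45 ± 0.18 (limma adjusted p = 7.32e-12) against e18 and −1.34 ± 0.18 (4.69e-07) against e20. Its other 2 probe sets over the filter gave −4.51, with d14 under background, and −4.44 against e18.

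CXCL14 (gene ID 395451), a chemokine of epithelia and stroma, read 9.82, 9.78, 9.84 and 9.67 at e18, 7.73, 7.27, 8.25 and 7.68 at e20, 6.01, 5.14, 5.68 and 6.00 at d1, and 6.95, 6.98, 6.96 and 6.70 at d14. Its lowest mean was at d1, and the d14 arrays lay under both embryonic ages. The change to d14 was −2.88 ± 0.26 (limma adjusted p = 2.67e-10) and −0.84 ± 0.26 (0.00589).

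**Figure D4:**
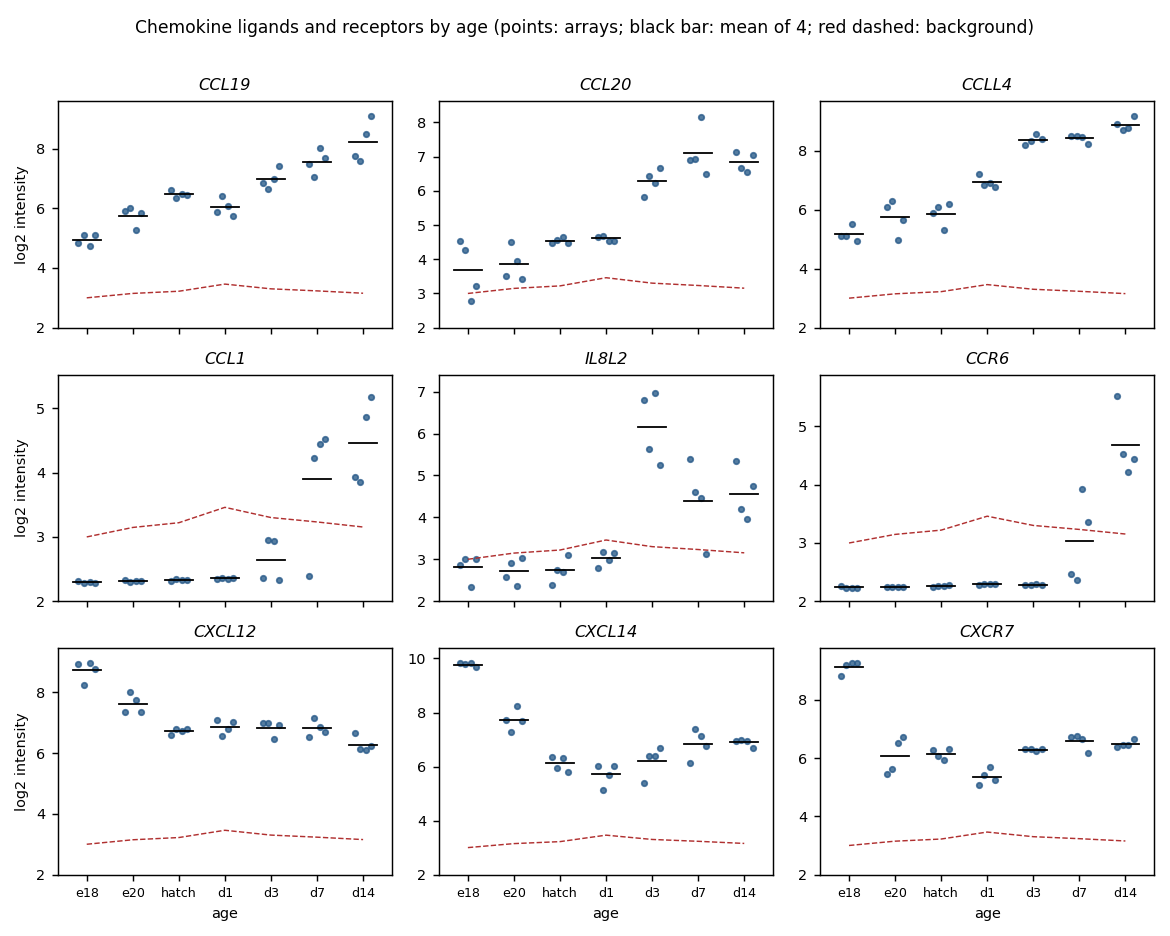
Log2 intensity of 9 chemokine ligand and receptor genes by age: points are the 4 arrays of an age, the black bar their mean and the red dashed line the mean background. CCL19 and CCLL4 have their highest means at d14 and CCL20 at d7, CCL1 and CCR6 leave background at d7 or d14, IL8L2 is highest at d3, and CXCL12, CXCL14 and CXCR7 are highest at e18.

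CXCL12 is read by the receptors CXCR7 and CXCR4, and both fell with it from e18 to e20. CXCR7 (gene ID 428997), a receptor that takes CXCL12 up without signalling through G proteins, read 8.82, 9.20, 9.25 and 9.25 at e18 and 5.46, 5.61, 6.52 and 6.72 at e20, a fall of 3.06 ± 0.20 (limma adjusted p = 7.92e-12). At d14 it read 6.38, 6.45, 6.46 and 6.67, within the range of e20. Its change from e20 to d14 was 0.41 (interval −0.01 to 0.83, limma adjusted p = 0.0773, not called). This change was called when arrays were centred (0.48, 0.0442), quantile normalized (0.49, 0.0403) or weighted (0.54, 0.0243), or without e20 replicate 3 (0.56) or replicate 4 (0.63). Under the other alternatives it was not called. Leaving out 1 array gave values from 0.21 to 0.63, and the limma adjusted p ranged up to 0.362 over the alternatives.

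CXCR4, the signalling receptor of CXCL12 on leukocytes and many embryonic cells, had age means of 5.91 at e18, 4.48 at e20, 4.23 at d1 and 6.20 at d14. It fell by 1.44 from e18 to e20, rose by 1.52 from d3 to d7 and rose by 1.73 from e20 to d14, whereas d14 against e18 gave 0.29 (interval −0.55 to 1.13, not called). CX3CR1, the receptor of CX3CL1 on macrophages, rose by 1.31 against e18 and stood at least 2.29-fold higher at d14 than at e20. Its age means were 3.25 or less up to d3, and 4.19 at d7 and 4.34 at d14. A gene with this course passes the filter through its late ages, so its rise supports nothing by itself. The other CX3CR1 probe set was under background at every age. In all, 4 of 10 chemokine receptors could be tested.

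TNF superfamily ligands were tested for 2 of 6 genes, and both rose, beside 33.2% of all genes against e18 and 27.2% against e20. TNFSF15 (gene ID 417247), known in mammals as TL1A, a costimulator of T cells made by endothelium and myeloid cells, lay between 2.90 and 3.44 on all arrays up to d1. It read 4.81, 5.86, 5.86 and 6.13 at d3, 6.09, 5.83, 6.06 and 6.35 at d7, and 6.73, 6.27, 6.20 and 6.92 at d14. No array from d3 on overlapped with the younger ages. It was at least 4.62-fold higher at d3 than at d1 and at least 10.5-fold higher at d14 than at e20. Only arrays from d3 on brought it into the test. Other TNFSF15 probe sets were under background at every age. TNFSF8, the neighbour of TNFSF15, was under background on every array.

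TNFSF10 (gene ID 378894), the death ligand TRAIL, read 10.44, 10.75, 10.55 and 10.05 at e18, 11.63, 10.76, 10.54 and 11.06 at e20, 12.03, 11.70, 12.51 and 12.31 at d1, and 12.86, 12.87, 13.34 and 13.19 at d14. The d14 arrays stood above all these, and its other 3 probe sets over the filter rose by 2.39 to 2.82 against e18. The change was 2.62 ± 0.19 (limma adjusted p = 5.80e-12) against e18 and 2.07 ± 0.19 (9.57e-10) against e20. Its receptor TNFRSF10B changed by −0.10 (interval −0.53 to 0.33) and −0.24 (−0.67 to 0.19).

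Of the 13 genes of the TNF receptor superfamily 9 were tested, and 5 rose and 2 fell in each comparison. Among all genes 33.2% rose and 40.5% fell against e18, and 27.2% and 40.4% against e20. TNFRSF6B (gene ID 395096), a soluble decoy receptor that in mammals binds TL1A and FAS ligand, had its highest mean at d3, as had IL8L2. It read 3.17, 2.85, 2.40 and 2.96 at e18, 2.67, 3.20, 2.24 and 3.93 at e20, 4.17, 3.73, 3.52 and 2.73 at d1, 6.39, 6.14, 5.84 and 4.98 at d3, 5.16, 4.95, 3.69 and 3.98 at d7, and 5.54, 4.76, 3.67 and 5.00 at d14. The d3 arrays lay above those of d1, while the d14 arrays overlapped with those of e20. The rise from d1 to d3 was 2.30 ± 0.43 (limma adjusted p = 0.000312) and the fall to d7 1.39 (0.0320). No embryonic array of TNFRSF6B exceeded 4, and its hatch mean was 2.53. It passed the filter through later ages, so these p-values support nothing by themselves.

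TNFRSF9 (gene ID 419365), the T cell costimulator 4-1BB, was high at both ends. It read 6.98, 6.54, 6.43 and 6.16 at e18, 5.07, 5.15, 5.34 and 5.35 at e20, 4.70, 4.52, 4.81 and 4.97 at hatch, and 7.03, 6.52, 6.81 and 7.05 at d14. The e18 and d14 arrays overlapped, and both lay above those of e20 and hatch. It fell by 1.30 from e18 to e20 (limma adjusted p = 1.21e-05) and rose by 1.62 ± 0.21 from e20 to d14 (2.44e-07), while d14 against e18 gave 0.33 (interval −0.11 to 0.76, not called). These values rest on 1 probe set, as the others of TNFRSF9 were under background at every age.

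TNFRSF1A, the broadly expressed TNF receptor, rose by 1.21 against both ages, whereas TNFRSF1B fell by 0.89 against e18 and changed by −0.01 against e20 (interval −0.50 to 0.49). Of its other 2 probe sets over the filter, one gave −0.74 and 0.66 (limma adjusted p = 0.0136 and 0.0290) and the other −0.15 and 0.04, neither called. The death receptor TNFRSF21 rose by 1.05 and 0.76, and TNFRSF18, the T cell receptor GITR, by 1.01 and 0.69. TNFRSF11A, the receptor RANK, read 8.51, 8.59, 8.56 and 8.41 at e18 and 10.10, 10.15, 9.91 and 9.90 at e20, a rise of 1.50 ± 0.09 (limma adjusted p = 2.79e-12), and d14 was 1.13 above e18 and fell by 0.37 from e20. A second, dimmer probe set of it, under background at e20, gave 1.05 from e20 to d14, and it was the 1 gene with opposite calls among the 11 that had further probe sets over the filter. TNFRSF11B, the soluble decoy for the RANK ligand, fell by 1.36 and 1.10, and the ligand TNFSF11 was under background on every array.

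Toll-like receptors, which sense microbial molecules, were tested for 3 of 8 genes. TLR3 (gene ID 422720), the sensor of double-stranded RNA, read 4.55, 4.66, 5.26 and 5.09 at e18, 4.48, 4.47, 4.14 and 4.98 at e20, and 6.31, 7.13, 7.99 and 8.87 at d14. The d14 arrays were the most spread of its ages and still lay above both embryonic ages. The change was 2.68 ± 0.39 (limma adjusted p = 1.13e-06) and 3.06 ± 0.39 (2.17e-07), with called rises from e20 to hatch and from d1 to d3. All of this rests on 1 probe set, as the others of TLR3 were under background at every age.

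TLR21 (gene ID 415623), the chicken sensor of unmethylated CpG DNA, read 2.63, 2.60, 2.66 and 2.80 at e18 and 3.49, 2.78, 2.96 and 3.05 at e20. It stood at 4.12, 3.73, 4.45 and 4.43 at d1 and at 4.71, 4.51, 4.78 and 4.72 at d14, with no overlap. It was at least 3.21-fold and 2.73-fold higher at d14, and only arrays after e20 brought it into the test. Further probe sets of TLR21 were under background at every age. TLR2A, a sensor of bacterial lipoproteins, had its highest mean at d7 (4.07) and fell by 0.64 to d14, and it entered the test only through arrays of d3 and d7. Its changes from e18 (−0.05, interval −0.34 to 0.24) and e20 (0.06, interval −0.23 to 0.35) were not called. TLR4, TLR5, TLR7, TLR15 and TLR1A were too low to test. CSF2RA, the receptor chain for GM-CSF and the 1 gene tested of the 4 in the colony stimulating group, rose by 0.80 and 1.18.

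The TGF-beta group held 8 genes by symbol, which were ligands, receptors and the adaptor TGFBRAP1. Of these, 4 were tested, and all 4 fell against e18, while 3 fell and 1 rose against e20. Among all genes 40.5% fell against e18, and 40.4% fell and 27.2% rose against e20. TGFB2 (gene ID 421352), a ligand of stroma and epithelium, read 6.63, 6.55, 6.66 and 6.93 at e18, 6.84, 6.68, 6.88 and 6.53 at e20, 5.81, 5.65, 4.65 and 5.19 at hatch, and 3.87, 3.88, 3.86 and 4.00 at d14. Both embryonic ages lay above every array from hatch on. The change to d14 was −2.79 ± 0.26 (limma adjusted p = 4.35e-10) and −2.83 ± 0.26 (6.90e-10).

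TGFB3 (gene ID 396438), a second ligand, read 8.92, 9.01, 9.17 and 8.88 at e18, 7.62, 7.86, 8.43 and 7.68 at e20, 7.10, 6.58, 6.91 and 6.98 at hatch, and 6.16, 6.20, 6.05 and 6.21 at d14. These 4 ages did not overlap. The change to d14 was −2.84 ± 0.15 (limma adjusted p = 2.24e-14) and −1.74 ± 0.15 (4.68e-10). TGFBR2L (gene ID 424261), annotated as like the type II receptor, read 7.43, 7.80, 7.38 and 7.65 at e18, 5.66, 5.89, 6.47 and 6.31 at e20, and 4.97, 4.93, 4.83 and 4.63 at d14, again apart. It changed by −2.73 ± 0.14 (limma adjusted p = 1.35e-14) and −1.25 ± 0.14 (4.13e-08). Further probe sets of TGFBR2L were under background at every age.

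The type I receptor TGFBR1 had age means of 7.85 at e18, 6.72 at e20, 6.12 at d1 and 7.19 at d14, so that it fell by 0.66 against e18 and rose by 0.48 against e20. TGFB1 and the type II receptor TGFBR2 were too low to test, TGFBR2 under background on every array. TGFBR3, the co-receptor betaglycan, missed the filter by 1 array with 3.59, 4.37, 6.30 and 5.92 at e18 and 3.85 or less on every other array.

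**Figure D5:**
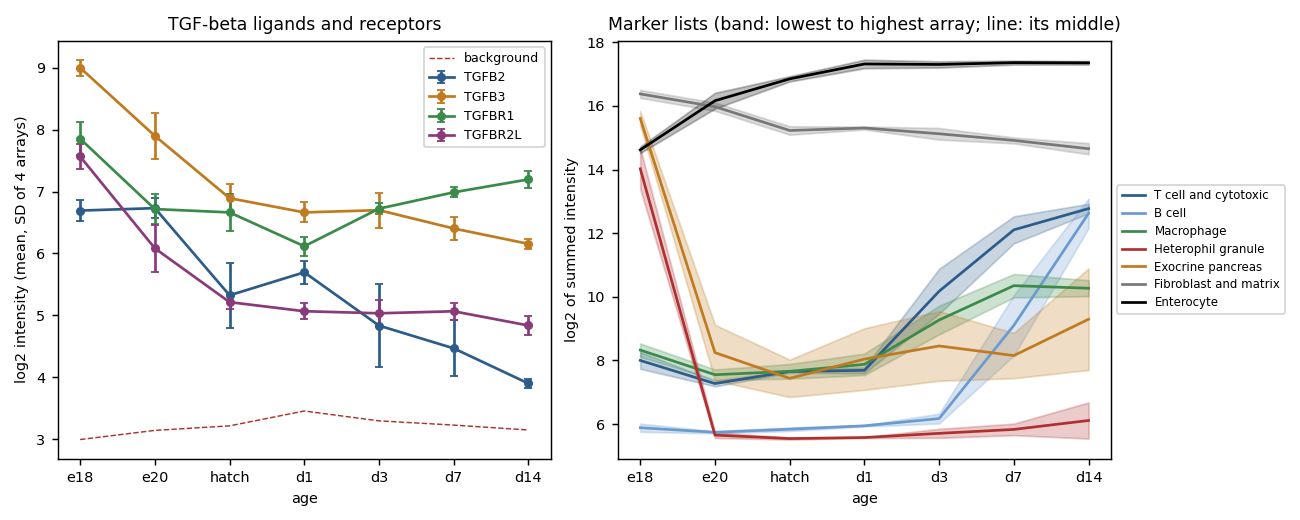
Left, age means of the 4 TGF-beta genes tested with their SD over 4 arrays (log2 intensity) and the mean background (red dashed). Right, the log2 of the summed intensity of each cell type marker list by age, as a band from the lowest to the highest array: heterophil and pancreas lists are high at e18, fibroblast markers decline from 16.25 to 16.50 at e18 to 14.48 to 14.83 at d14, the T cell and macrophage lists are higher from d3 on and the B cell list from d7 on.

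Changes were also read from each age to the next. From e18 to e20, 7 genes rose and 16 fell, beside 54.2% of all genes called (29.2% higher, 25.0% lower). From e20 to hatch 7 rose and 9 fell, beside 43.3% of all genes called (19.2% higher, 24.1% lower), and from hatch to d1 6 rose and 5 fell, beside 35.2% (12.5% higher, 22.7% lower). From d1 to d3, 18 rose and 2 fell (37.5% and 4.2%), beside 25.7% of all genes called (15.0% higher, 10.7% lower). From d3 to d7, 10 rose and 2 fell (20.8% and 4.2%), beside 13.5% of all genes called (5.07% higher, 8.38% lower). From d7 to d14 3 genes were called, CCR6 and IL20RA higher and TLR2A lower, beside 0.858% of all genes (0.405% higher, 0.453% lower).

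The 18 rises from d1 to d3 included those of TNFRSF6B, CCL20, IL10RB, IL2RG, CCLL4 and TLR3, and of IL8L2 and TNFSF15, whose d1 means were under background. The 2 that fell were TGFB2, by 0.86, and TNFRSF11A, by 0.43. The 10 rises from d3 to d7 were those of IL16, IL2RG, CXCR4, CCL1, TNFRSF9, CX3CR1, IL7R, CCR6, TLR21 and CSF2RA. The CCR6 mean was under background at both ages. The CCL1 and CX3CR1 means were under background at d3, so their rises were at least 1.51-fold and 1.79-fold. Without d3 replicate 1, d7 replicate 3 or d7 replicate 4 the count of genes called from d3 to d7 was 7, 6 and 7 in place of 12. The share of all genes called without these arrays is not given here, so this shows only how the count moved. The direction of calls over all genes depended on scaling at these steps: of the genes called from d1 to d3, 58.5% were higher as deposited and 45.8% with arrays centred on their median, and from d3 to d7 37.7% and 49.7%. From hatch to d1 the share was 35.5% as deposited, 49.3% centred and 46.6% with quantile normalization. Among the 48 cytokine system genes tested the centred arrays gave 17 higher and 2 lower from d1 to d3, 11 and 2 from d3 to d7, and 7 and 4 from hatch to d1. Of all 8396 genes they gave 1022 higher and 1209 lower, 522 and 529, and 1473 and 1516 at these 3 steps.

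The mean of the 4 ages after hatch was also set against that of the 2 embryonic ages. By this comparison 28 genes rose and 16 fell, beside 79.4% of all genes called (34.1% higher, 45.3% lower), with IL15 up by 5.07 ± 0.14, CCLL4 by 2.69 ± 0.13 and CCL20 by 2.44 ± 0.20. CXCL14 fell by 2.34, TGFB2 by 1.99 and TGFB3 by 1.97. With e20 alone as the embryonic age, 29 rose and 12 fell, for which the share of all genes is not given here.

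Downstream genes of these receptors were read from lists on the same arrays. Of 34 adaptors and regulators of Toll and IL-1 receptors and NF-kB 27 were on the array and 23 tested, and 16 rose and 1 fell against e18, 18 and 1 against e20. Over all genes 33.2% rose and 40.5% fell against e18, and 27.2% and 40.4% against e20, beside which the counts of this and the next lists stand. Their median change was 0.58 and 0.35. NFKBIZ, an inducible nuclear regulator of NF-kB, rose by 3.62 against e18, TNFAIP3, a brake on NF-kB, by 1.49, and MYD88 by 0.84. LY96, the co-receptor MD-2 of TLR4, had means of 2.59 at e18 (under background) and 5.95 at d14. TAB1 fell by 0.52 against e18.

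Among 22 genes of the JAK, STAT and SOCS list 13 were tested, of which 7 rose and 1 fell against e18 and 8 rose and 2 fell against e20 (median 0.60 and 0.68). SOCS3, a feedback inhibitor that STAT3 induces, had means of 2.63 at d1 (under background), 7.75 at d3 and 6.92 at d14. SOCS1 rose by 3.90 and STAT3 by 2.14 against e18, and SOCS5 fell by 1.34. Of 13 TNF receptor adaptors 9 were tested, and 5 rose and 0 fell in both comparisons, BIRC2, an inhibitor of apoptosis bound to TRAF proteins, by 2.60 against e18 and the kinase RIPK1 by 1.61, with 4 not called.

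The SMAD and TGF-beta regulator list held 18 genes, 11 of them tested, of which 0 rose and 5 fell against e18 and 2 rose and 4 fell against e20. Its median change was −0.31 and −0.11, beside −0.07 and −0.13 for all genes. SMAD9 fell by 1.51, SMAD2, a direct substrate of the TGF-beta type I receptor, by 1.14 and LTBP1, which holds latent TGF-beta in the matrix, by 0.98 against e18. Of 35 further cytokine and receptor genes outside the symbols chosen 14 were tested, with 6 higher and 5 lower in each comparison. XCL1, a chemokine of cytotoxic lymphocytes, had means of 2.42 at e18 (under background) and 8.11 at d14. FAS rose by 2.94, and LIFR and KITLG fell by 2.16 and 2.13 against e18.

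Markers of other cells moved at the same ages, and their part in the results above was not tested. For 12 T cell and cytotoxic markers the log2 of the summed intensity was 7.60 to 7.78 at d1, 9.47 to 10.88 at d3 and 12.63 to 12.93 at d14. Of 7 of these that were tested 6 rose against e18. CD3D had means of 6.63 at e18 and 10.63 at d14, and GZMA 2.54 (under background) and 11.99. LCK, CTLA4 and ZAP70 were under background at every age. The sum of 7 B cell markers was 6.02 to 6.33 at d3 and 12.16 to 13.09 at d14. Only 3 of them were tested, all higher against e18, and BLK was under background at every age. The number above background was 2 at d3 and 6 at d14. The sum of 9 macrophage markers was 7.39 to 7.72 at e20, 8.82 to 9.72 at d3 and 10.02 to 10.52 at d14, with all 7 tested higher. The sum of 12 enterocyte markers went from 14.52 to 14.72 at e18 to 17.30 to 17.41 at d14. All 10 fibroblast markers fell against e18, and 9 of them fell against e20. Among all genes 33.2% rose and 40.5% fell against e18, and 27.2% and 40.4% against e20.

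The other 65 genes were too low to test. Of these, 42 were under background on all 28 arrays, with 2.97 as their highest value. Among interleukins they were IL1B, IL2, IL9, IL12A, IL12B, IL13, IL17A, IL17F and IL21, and the receptors included IL2RA, IL6ST, IL10RA, IL15RA, IL21R, IL23R, CCR4, CCR7, CCR9, CXCR5 and TLR4. The other low receptor chains were IL9R, IL11RA, IL12RB2, IL13RA2, IL17RA, IL17RD, IL18R1, IL1R2, IL1RAPL1, IL1RAPL2, IL1RL2, IL20RB, IL22RA2 and IL31RA. The group also held IL4, IL10, IL6, IL22 and the enzyme IL4I1, the ligands CCL4, CCLI5, CXCL13L2, CXCL13L3 and IL8L1, CCR8 and CCR8L, CSF2, CSF3 and CSF3R, and TNFSF4, TNFSF8, TNFSF11 and TNFSF13B. TNFRSF8, TNFRSF13B, TNFRSF14, TNFRSF25, TGFB1, TGFBR2, TGFBR3, TGFBRAP1 (an adaptor), TLR1A, TLR5, TLR7 and TLR15 complete it. A value under background is a bound on the signal and not a level of 0.

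At the filter itself, 6 of these 65 genes exceeded 4 on some array: TGFBR3 on 3, IL6 on 2, and IL8L1, IL22, IL31RA and IL13RA2 on 1 each. The IL6 arrays over 4 were 1 at e20 (4.16) and 1 at d1 (4.35), and IL22 read 4.38, 2.96, 2.56 and 2.40 at d14. Just inside it were CCR6, IL17REL and CX3CL1 with 4 such arrays, CCL1 and TLR2A with 5, and CX3CR1 and IL17D with 6.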

How the data were processed

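Total RNA of 28 samples was labelled with biotin and hybridised to 1 array each, per the labels. For each array the deposited table holds a linear intensity per probe set, made with GCRMA per the submitters' processing notes. The version of GCRMA is not given in the sources used here. Dim probe sets had nearly the same value on many arrays, so a change of a low gene can be understated. Of 38535 probe sets, 153 controls were left out, 27168 carried 1 gene symbol and were used, and 177 had several symbols and 11037 none.

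The log2 was taken and each symbol read from its probe set with the highest mean (189 probe sets for 113 genes, 67 of which had 1). All 113 gene IDs were found in the RefSeq gene table (GRCg7b) with the same symbol, and that table gave gene order only. One mean per age was fitted in R 4.3.3 by limma 3.58.1 (eBayes with 21 residual and 3.13 prior degrees of freedom) to all 8396 genes with log2 over 4 on at least 4 arrays. Tests were two-sided, adjusted by Benjamini and Hochberg over these genes, and called under 0.05. Errors are SE of the fit, and intervals are 95% intervals from it without adjustment. Further probe sets were read from a fit of 12936 probe sets over the filter. Where an age mean was under that age's background, a fold is given as at least the ratio of the other age to it, from means over arrays of the higher of background and value, and no fold where both were under it.

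Array values were given for the 24 genes called by the F-test whose age means spanned at least 2, or which changed by at least 2 to d14 and were called (19.0% of all genes met the first condition), at the ages the sentences name. Some array values of IL20RA, TNFRSF11A, IL1RL1, IL8L1, IL6, IL22 and TGFBR3 were also given, outside this rule. IL8L1 and IL8L2 were placed with the chemokine ligands for their product, not by symbol. The genes, lists and tests were chosen with earlier results of these data known. Replicate numbers follow the order of the records, and no batch, line or pool is given per array, so none was a term. No 2 arrays held identical values. The alternatives were no filter, a filter at log2 over 5, quantile normalization, median centring, the mean of probe sets, a floor at background, a trended prior, array weights, leaving out each array, and leaving out or replacing e18. The fit was tested on simulated data.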

Additional observations from a re-analysis of the deposited data

Results flagged for a closer look

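Among 168 sets of 4 arrays (the 24 genes with array values, at 7 ages), 14 had 1 array far from the other 3 by Dixon's test, and chance flags about 1 in 20 sets. The array that stood lowest was 2.39 for CCL1 at d7 (the nearest 4.23), 6.46 for CXCL12 at d3 (6.92), 6.70 for CXCL14 at d14 (6.95), 8.82 for CXCR7 at e18 (9.20) and 6.18 for CXCR7 at d7 (6.67). It was also lowest for IL15 at d3, at 11.26 (11.69), for TGFBR2L at d1, at 4.88 (5.11), for TGFBR2L at d7, at 4.86 (5.13), and for TNFSF15 at hatch, at 3.01 (3.11). The array stood highest for IL15 at d1, at 11.32 (11.05), for TLR3 at hatch, at 6.98 (5.51), for IL2RG at e20, at 3.50 (3.42), for IL2RG at d1, at 3.70 (3.46), and for CCR6 at d3, at 2.29 (2.27), which is under background.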

How the results depend on the processing

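No paired analysis was possible because the replicate numbers follow the order of the records and pair no arrays across ages. With no filter all 113 genes were tested, 65 of them too low for the main filter, and 86 differed over the ages, 61 were called at d14 against e18, 90 after against before hatch, 20 at d1 against hatch and 5 at d14 against d7; with the filter at 5 the last count was 1. Leaving out 1 array gave 40 to 41 genes at d14 against e18, 40 to 44 against e20, 19 to 23 at e20 against e18, 13 to 18 at hatch against e20, 10 to 12 at d1 against hatch, 18 to 22 at d3 against d1, 6 to 14 at d7 against d3 and 2 to 3 at d14 against d7. Over the ages 46 to 47 were called, and 45 without the e18 arrays. Without the filter the counts take in 42 genes that were under background on every array. All these counts stand without the share of all genes called under the same setting, so they show only how the counts moved. Of 1722 values of the 24 genes at d14 against e18 and e20 under the alternatives, 1715 kept direction and side of the threshold and 5, all of CXCR7 against e20, newly passed it. IL17REL against e20, under background at both ages, turned from −0.03 to 0.0387 with centred arrays and 0.0065 with the floor. The cause of these moves was not tested. Signal over background limits what can be said of the 12 tested genes that were under background at 1 or more ages.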
